A study of Homo sapiens with 3 samples.

Results

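Epithelial-mesenchymal transition (EMT) is the programme by which epithelial cells lose their junctions and take on mesenchymal traits. The 10 genes described here are 6 that code for transcription factors which drive it (SNAI1, SNAI2, TWIST1, TWIST2, ZEB1 and ZEB2) and 4 that code for factors which hold cells in the epithelial state (GRHL1, GRHL2, OVOL1 and ESRP1). They were chosen by name, and each matched 1 of the 26485 entries of the count table. They were measured in CAMA1, a human breast cancer line positive for the estrogen receptor (ER+) and carrying an FGFR1 amplification per the labels, grown in dishes. The samples are 1 group of 3 libraries from CAMA1 cells kept for 48 h in medium without estradiol. No treated group and no second line was analysed here, so nothing compares conditions.

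The SNAI and ZEB proteins are zinc finger repressors that bind E-box sequences of the type CACCTG in the promoters of junction and polarity genes, the best known being CDH1, the gene of E-cadherin. TWIST proteins are basic helix-loop-helix factors that bind DNA as dimers with E proteins. Grainyhead-like (GRHL) and OVOL proteins are transcription factors of epithelia that activate junction genes or repress the ZEB genes, and ESRP1 is a splicing factor that sets the epithelial exon choice in many transcripts.

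The deposited counts summed to between 26473939 and 30745412 per library. Levels are TPM, in which each count is divided by the deposited gene length and scaled to the same total in every library, and errors are SD over the 3 libraries (n = 3). Detection required 10 counts or more in all 3 libraries, and 3 counts is the limit that a count of 0 allows, which covers counting error only. All 8 luminal epithelial markers were detected, with a median of 919 TPM and KRT7 at 1810.2 TPM, while of 12 immune, endothelial and fibroblast markers 2 were detected (LYZ at 6.48 ± 1.17 TPM and CD68 at 3.08 ± 0.470 TPM). VWF and PDGFRB were at 0.103 and 0.0468 TPM. The summed TPM of these 12 markers was 11.4, 8.90 and 9.08 in replicates 1, 2 and 3, with PDGFRA, LUM, DCN and COL1A2 at 0 counts in every library. The submitters call the replicates biological and give no more on how the cultures were separated, so p-values measure the spread between these libraries, part of which may be technical.

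These regulators are tied to other measured genes by known sequences, the E-box that SNAI and ZEB proteins bind, and the microRNA seed matches in the ZEB transcripts. Promoters are from RefSeq (GRCh38.p14) and run from 250 bases before to 50 bases after the annotated start. The motif searched was CACCTG, read on both strands, so that CAGGTG is the same motif on the other strand. It was present in 20.6% of all 27305 promoters of that table. Of the 15 promoters found for 25 epithelial target genes 10 held it (66.7%), and 2 of the 14 found for 26 mesenchymal genes did (14.3%). Of the 5 promoters found for 8 relatives of the regulators 3 held it (60.0%). The epithelial list was chosen as genes that the drivers repress or the blockers activate in other cells, so its share is not an independent test. Of the 10 EMT regulators 4 had a promoter in the table, and ZEB1 held the motif once while ZEB2, TWIST2 and GRHL1 held no copy. CRB3, which codes for an apical polarity protein, held 5 copies, a number reached by 0.0952% of all promoters. RAB25, which codes for a small GTPase of epithelial vesicle traffic, held 2. The sequences of these 3 are shown 5′ to 3′ with the motif in capitals; CRB3 and RAB25 were picked as examples after the motif counts were known.
CRB3 (chr19:6464021-6464320, plus strand): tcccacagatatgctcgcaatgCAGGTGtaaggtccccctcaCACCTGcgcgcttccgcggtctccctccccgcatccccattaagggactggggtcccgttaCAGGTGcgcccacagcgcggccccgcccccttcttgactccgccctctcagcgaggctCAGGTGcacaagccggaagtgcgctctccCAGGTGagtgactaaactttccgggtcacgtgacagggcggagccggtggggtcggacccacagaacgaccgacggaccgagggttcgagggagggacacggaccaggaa
RAB25 (chr1:156060910-156061209, plus strand): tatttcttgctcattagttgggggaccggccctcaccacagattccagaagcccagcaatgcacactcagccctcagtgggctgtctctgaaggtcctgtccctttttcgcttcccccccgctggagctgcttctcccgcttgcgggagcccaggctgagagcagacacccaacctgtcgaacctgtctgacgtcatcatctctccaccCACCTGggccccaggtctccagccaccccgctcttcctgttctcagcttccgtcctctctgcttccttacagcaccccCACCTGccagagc
ZEB1 (chr10:31318167-31318466, plus strand): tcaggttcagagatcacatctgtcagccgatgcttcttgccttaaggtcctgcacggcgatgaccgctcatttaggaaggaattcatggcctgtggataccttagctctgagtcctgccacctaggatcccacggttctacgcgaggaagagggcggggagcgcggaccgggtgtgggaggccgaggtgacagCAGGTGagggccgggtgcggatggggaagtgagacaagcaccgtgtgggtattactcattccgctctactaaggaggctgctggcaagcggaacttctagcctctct

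A match to these letters is a description of the sequence and not evidence that a factor sits there. The ZEB1 window lies within the span of ZEB1-AS1 (31316528 to 31319095). It ends before the counted ZEB1 entry begins at 31319172. CRB3 stood at 63.5, 72.6 and 80.4 TPM and RAB25 at 377, 413 and 398 TPM in replicates 1, 2 and 3. Both transcripts were thus present in every library of these cells.

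ZEB1 and ZEB2 transcripts are the textbook targets of the miR-200 family, whose genes the ZEB proteins repress in turn. The family has 2 seeds, shown in capitals (bases 2 to 8 of the mature microRNA, from RefSeq, GRCh38.p14), so miR-200b, miR-200c and miR-429 form the first seed group and miR-200a and miR-141 the second.
hsa-miR-200b-3p: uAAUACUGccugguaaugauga
hsa-miR-200c-3p: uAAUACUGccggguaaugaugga
hsa-miR-429: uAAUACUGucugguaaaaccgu
hsa-miR-200a-3p: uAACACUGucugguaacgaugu
hsa-miR-141-3p: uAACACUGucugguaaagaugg

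The longest 3′ UTR of ZEB1 in GENCODE v29 (GRCh38, 2549 bases) held 9 matches to these seeds, 6 to the first (CAGTATT) and 3 to the second (CAGTGTT), searched on the transcript strand alone. That of ZEB2 (5370 bases) also held 9, with 5 and 4. A number of 9 or more was reached by 0.0314% of 19113 protein-coding genes, and by 0.0475% of the 2105 genes whose 3′ UTR was of a length near that of ZEB1 (within 1.2 times) and 0.207% of the 967 near that of ZEB2. For each gene a match to either seed is shown, with the seed match in capitals.
ZEB1 match 1 (chr10:31527619-31527640, plus strand): ttgttttatcttatCAGTATTa
ZEB1 match 3 (chr10:31528032-31528053, plus strand): aaaatcatcagaatCAGTGTTt
ZEB2 match 1 (chr2:144389236-144389257, minus strand): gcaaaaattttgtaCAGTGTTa
ZEB2 match 2 (chr2:144389052-144389073, minus strand): gcactaccatacatCAGTATTt

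Among the other regulators ESRP1 held 2 matches, SNAI2 and GRHL2 held 1 each, and SNAI1, TWIST1, TWIST2, GRHL1 and OVOL1 held none. At least 1 match was present in 28.3% of genes. The matches are a property of the transcripts, and whether any was used in these cells was not tested.

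**Figure D1:**
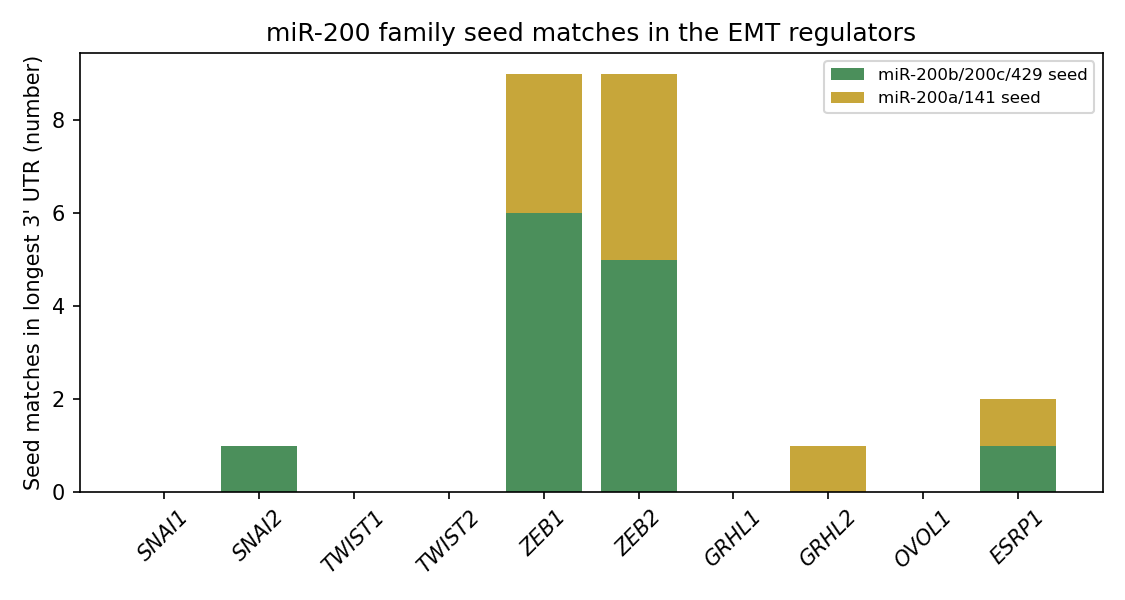
Number of miR-200 family seed matches (y axis) in the longest 3′ UTR of each of the 10 EMT regulators (x axis), stacked by seed group. ZEB1 and ZEB2 hold 9 each and no other regulator more than 2.

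Mature microRNAs were not measured, since the libraries were made from poly-A RNA, and counts over the hairpins come from longer transcripts that run across them. The chromosome 1 hairpins MIR429 and MIR200A had 17, 17 and 15 counts and 13, 5 and 14 counts in replicates 1, 2 and 3. MIR200B had 3, 5 and 2 counts, while on chromosome 12 MIR141 had 2, 0 and 1 and MIR200C 0, 0 and 1. MIR205HG, the host transcript of another microRNA that targets the ZEB transcripts, had 84, 65 and 115 counts (9.28 ± 1.86 TPM), and the hairpin MIR205 itself had none. All but MIR429 and MIR205HG were thus below 10 counts in some library.

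All 4 blockers and 2 of the 6 drivers were detected in CAMA1 cells, 6 of 10 regulators in all, beside 67.3% of 18985 protein-coding genes. The number of drivers depended on the minimum, with 4 of 6 at 1 count or more in each library and 1 of 6 (TWIST1) at 20 or more, while all 4 blockers passed both. The drivers summed to 12.1, 11.6 and 12.7 TPM and the blockers to 319, 313 and 307 TPM in replicates 1, 2 and 3, a log2 ratio of drivers over blockers of -4.69 ± 0.08 (SD, n = 3). TWIST1 made up 81.4 ± 2.93% of the driver sum, and ESRP1 with GRHL2 84.8 ± 0.575% of the blocker sum. The lowest blocker in any library (OVOL1, 13.4 TPM) lay above the highest driver in any library (TWIST1, 9.998 TPM). Without division by length the ratio of drivers over blockers was -5.97, so the direction held on either scale.

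**Figure D2:**
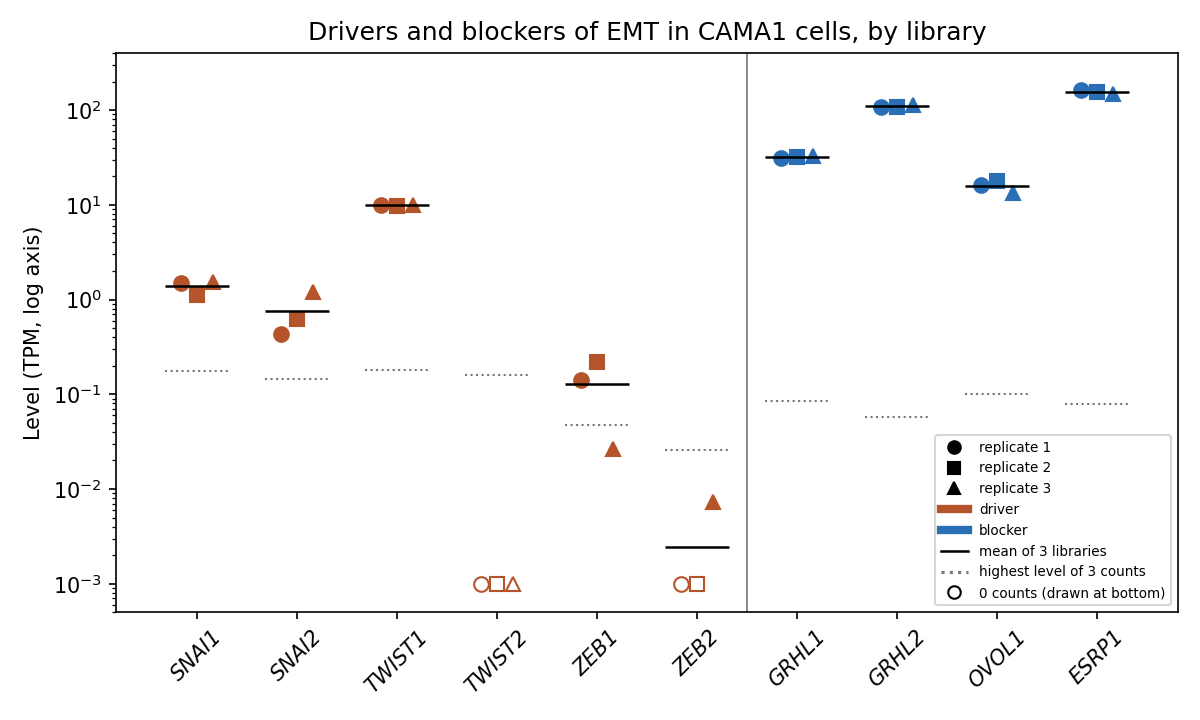
Level of each EMT regulator in TPM (log axis) in replicates 1 to 3 (circle, square, triangle), drivers in orange and blockers in blue, with the mean as a black line and the highest level that 3 counts give in any library as a dotted line. The 4 blockers lie between 13.4 and 164 TPM and the 6 drivers between 0 and 9.998 TPM, with TWIST2 at 0 counts in all 3 libraries (open symbols, drawn at the bottom).

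TWIST1 was the only driver near the level of a typical gene. TWIST1 (chromosome 7, 19115468 to 19117672, minus strand) codes for a basic helix-loop-helix factor of mesoderm and neural crest. It had 165, 161 and 194 counts, or 9.998, 9.68 and 9.92 TPM, in replicates 1, 2 and 3 (9.87 ± 0.164 TPM). The 3 libraries lay close together, and 52.0% of protein-coding genes had a lower mean. Its paralogue TWIST2 (chromosome 2, 238848032 to 238910548, plus strand) had 0 counts in each library, which allows a level of up to 0.161 TPM. Set against 3 counts in the same library, TWIST1 was at least 60.7-fold higher than TWIST2 per length in each library.

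The SNAI genes were close to the limit of detection. SNAI1 (chromosome 20, 49982976 to 49988883, plus strand), the gene of Snail, had 25, 19 and 31 counts (1.48, 1.12 and 1.55 TPM; 1.38 ± 0.232 TPM). SNAI2 (chromosome 8, 48917681 to 48921440, minus strand), the gene of Slug, had 9, 13 and 30 counts (0.431, 0.618 and 1.21 TPM; 0.754 ± 0.408 TPM), and missed the detection call through replicate 1. SNAI2 was highest in replicate 3, where its level reached the range of SNAI1. In bulk RNA a few cells with a high level and a low level in every cell cannot be told apart. The log2 ratio of SNAI1 over SNAI2 was 0.98 ± 0.71 (SD, n = 3, with 0.01 TPM added to each gene) and positive in 3 of 3 libraries. SNAI3, a relative of both, had 18, 29 and 34 counts (1.48 ± 0.365 TPM).

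ZEB1 and ZEB2, whose products repress epithelial genes and the miR-200 loci, were barely present. ZEB1 (chromosome 10, 31319172 to 31529814, plus strand) had 9, 14 and 2 counts, or 0.142, 0.220 and 0.0267 TPM. It was lowest in replicate 3, where its 2 counts lay under the limit of 3. ZEB2 (chromosome 2, 144384375 to 144520391, minus strand) had 0, 0 and 1 counts, and 3 counts would give at most 0.0260 TPM. The log2 ratio of ZEB1 over ZEB2 was 3.18 ± 1.84 (SD, n = 3, with 0.01 TPM added to each gene), at 3.93, 4.52 and 1.08 in replicates 1, 2 and 3, and 0.17 with 1 TPM added. Summed over libraries ZEB1 had 25 counts and ZEB2 had 1, a ratio per length of 45.6 with an exact (Clopper-Pearson) 95% counting interval from 7.47 to 1873, which rests on that 1 count. ZEB1-AS1, the antisense gene whose listed exons begin beside ZEB1, had 200, 216 and 220 counts (9.12 ± 0.656 TPM), above ZEB1 itself in every library, and shared no exon base with it. ZEB2-AS1, which shares 223 exon bases with ZEB2 on the other strand, had 0 counts; the strand setting of the counting is not known, so reads of the pair could not be told apart there. SNAI3-AS1, whose span contains that of SNAI3, stood at 2.44 ± 0.487 TPM, with the same limit on reads of the pair.

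ESRP1 and GRHL2 were the most abundant of the 10 regulators, and both lie on chromosome 8. ESRP1 (94641136 to 94707466, plus strand) had 6176, 5883 and 6665 counts, or 164, 155 and 149 TPM (156 ± 7.40 TPM), a mean above that of 94.1% of protein-coding genes. GRHL2 (101492440 to 101669724, plus strand), a grainyhead factor that in other epithelia activates CDH1 and claudin genes and opposes ZEB1, had 5621, 5646 and 6860 counts, or 109, 108 and 112 TPM (109 ± 1.96 TPM), above 90.8% of protein-coding genes. Their ranges over the libraries did not meet. The 37 protein-coding genes listed between the 2 on chromosome 8 reached a median level of 40.1 TPM with 31 (83.8%) detected, beside a median of 8.07 TPM and 67.3% over all protein-coding genes. DNA copy number was not analysed here.

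GRHL1 and OVOL1 were lower. GRHL1 (chromosome 2, 9951663 to 10002284, plus strand), the paralogue of GRHL2, had 1105, 1146 and 1392 counts (30.9, 31.8 and 32.9 TPM; 31.9 ± 0.971 TPM). The log2 ratio of GRHL1 over GRHL2 was -1.78 ± 0.03 (SD, n = 3), negative in 3 of 3 libraries. The deposited length of GRHL1 is 0.453 times its GENCODE v29 exon length, and with the latter its level was 20.1 TPM. With GENCODE v29 exon lengths GRHL2 stood at 131 TPM. The ratio was not computed on those lengths, and its SD does not cover the choice of length. OVOL1 (chromosome 11, 65787034 to 65797219, plus strand), a zinc finger repressor of ZEB1 in epithelia, had 482, 534 and 476 counts (16.1, 17.7 and 13.4 TPM; 15.7 ± 2.17 TPM), lowest in replicate 3. OVOL1-AS1 lies within the OVOL1 span on the other strand without shared exon bases and had 12, 15 and 8 counts.

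In order of mean TPM the regulators ran ESRP1, GRHL2, GRHL1, OVOL1, TWIST1, SNAI1, SNAI2, ZEB1, ZEB2 and TWIST2. Among neighbours in that order, the ranges of SNAI1 and SNAI2 overlapped, as did those of ZEB2 and TWIST2 at or near 0 counts. The order was the same with GENCODE v29 exon lengths. For each of the 4 ratios within families the exact sign-flip permutation test (two-sided) gave p = 0.25, also after Benjamini-Hochberg adjustment over the 4. That is its smallest value with 3 libraries, and 0.05 was out of reach. All counts of the 10 genes were whole within 1e-08; whether reads had been divided between features was not tested.

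The relatives of the blockers spanned a wide range, and 3 of them (ESRP2, UBP1 and OVOL2) lay within that of the 4 blockers. ESRP2, the paralogue of ESRP1 with overlapping splicing targets, had 131, 130 and 136 TPM (132 ± 3.37 TPM), below ESRP1 in every library. OVOL2, a repressor related to OVOL1, had 369, 358 and 480 counts (20.4 ± 1.39 TPM), above OVOL1 in each library, while OVOL3 had 1, 0 and 4 counts. GRHL3 had 9.44, 8.87 and 9.21 TPM (9.17 ± 0.286 TPM), below GRHL1 and GRHL2. Of the CP2 branch of the grainyhead family, UBP1 stood at 94.0 ± 5.33 TPM, TFCP2 at 5.71 ± 1.2 TPM and TFCP2L1 at 0.640 ± 0.214 TPM. Of these 7 relatives of the blockers 6 were detected, beside 67.3% of all protein-coding genes. With SNAI3 the 8 relatives had a median of 7.44 TPM, beside 70.7 TPM for the blockers and 8.07 TPM over all protein-coding genes.

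Transcripts of the E proteins, with which TWIST proteins pair, were detected with 1 exception. TCF3 (160 ± 4.85 TPM) and TCF12 (71.6 ± 0.889 TPM), which code for E proteins that pair with TWIST1, were detected in every library. TCF4, the third E protein gene, had 6, 9 and 3 counts. The ID genes code for proteins that bind E proteins and keep them off DNA. ID3 had 554, 718 and 807 TPM, ID2 374, 380 and 652 TPM, and ID1 232, 312 and 498 TPM, so all 3 were highest in replicate 3. ID4 had 6.88, 6.57 and 3.12 TPM and was lowest there. Levels of ID3, ID2 and ID1 were thus above TWIST1 and above both detected E protein genes in each library.

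All 11 genes of SNAI and ZEB corepressors were detected, with a median of 74.5 TPM. Over all protein-coding genes 67.3% were detected, with a median of 8.07 TPM. SMARCA4, a chromatin remodelling ATPase gene, stood at 121 ± 6.71 TPM, the deacetylase gene HDAC1 at 110.4 ± 2.22 TPM, CTBP1, whose product ZEB proteins recruit, at 99.2 ± 3.50 TPM, and the demethylase gene KDM1A, whose product binds the SNAI1 repressor domain, at 89.5 ± 6.84 TPM. All 10 regulators of SNAI1 protein stability were detected as well (median 62.4 TPM), led by the kinase gene CSNK2A1 (169.8 ± 6.73 TPM), COPS2 of the COP9 signalosome (118.5 ± 9.38 TPM), the ubiquitin ligase gene FBXL5 (85.8 ± 2.89 TPM) and PPIL2 (83.1 ± 2.02 TPM). Protein levels were not measured, and these regulators act on the protein.

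Other transcription factors known to promote EMT were low, with KLF8 apart. KLF8 stood at 23.0, 22.5 and 21.9 TPM, the only gene of this list of 8 at 10 TPM or above. HMGA2 (0.818 ± 0.137 TPM) was also detected, and GSC had 6, 2 and 3 counts. The list had a median of 0.200 TPM, beside 0.442 TPM for the 6 drivers and 8.07 TPM over protein-coding genes.

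All 25 epithelial target genes, which the drivers repress or the blockers activate in other cells, were detected, none of them under 10 TPM. Their median was 121 TPM, beside a median of 8.07 TPM and 67.3% detected over all protein-coding genes. This list, like the other gene lists, was chosen with earlier results of these data known. The contrast is thus a description and not a test. Highest were the keratin genes of simple epithelia, with KRT19 at 3256 ± 605 TPM, KRT8 at 2469.9 ± 140.0 TPM and KRT18 at 1035 ± 58.7 TPM, followed by the mucin gene MUC1 at 602 ± 23.4 TPM. CDH1 had 97.3, 89.6 and 83.0 TPM in replicates 1, 2 and 3 (90.0 ± 7.15 TPM). A transcript level does not show whether the protein is made or intact.

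The mesenchymal list was mixed. Of 26 genes 12 were detected, beside 67.3% of protein-coding genes, the median was 0.246 TPM, and 4 genes reached 10 TPM. These were S100A4 (315 ± 6.65 TPM), which codes for a calcium-binding protein of motile cells, the collagen genes COL3A1 (163 ± 23.4 TPM) and COL1A1 (10.5 ± 0.270 TPM), and the smooth muscle actin gene ACTA2 (31.7 ± 3.32 TPM). VIM, the vimentin gene, stood at 3.27 ± 0.0515 TPM, the fibronectin gene FN1 at 1.76 ± 0.215 TPM, and CDH2, the N-cadherin gene, had 4, 7 and 13 counts. Other genes of the list that fibroblasts express differed among themselves. SPARC had 67, 71 and 81 counts and CDH11 39, 42 and 33, PDGFRB had 2, 6 and 0 and FAP 0, 1 and 3, and LUM, DCN, POSTN, THY1, PDGFRA and COL1A2 had 0 counts in all 3 libraries. The part of other cells in these levels was not tested.

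**Figure D3:**
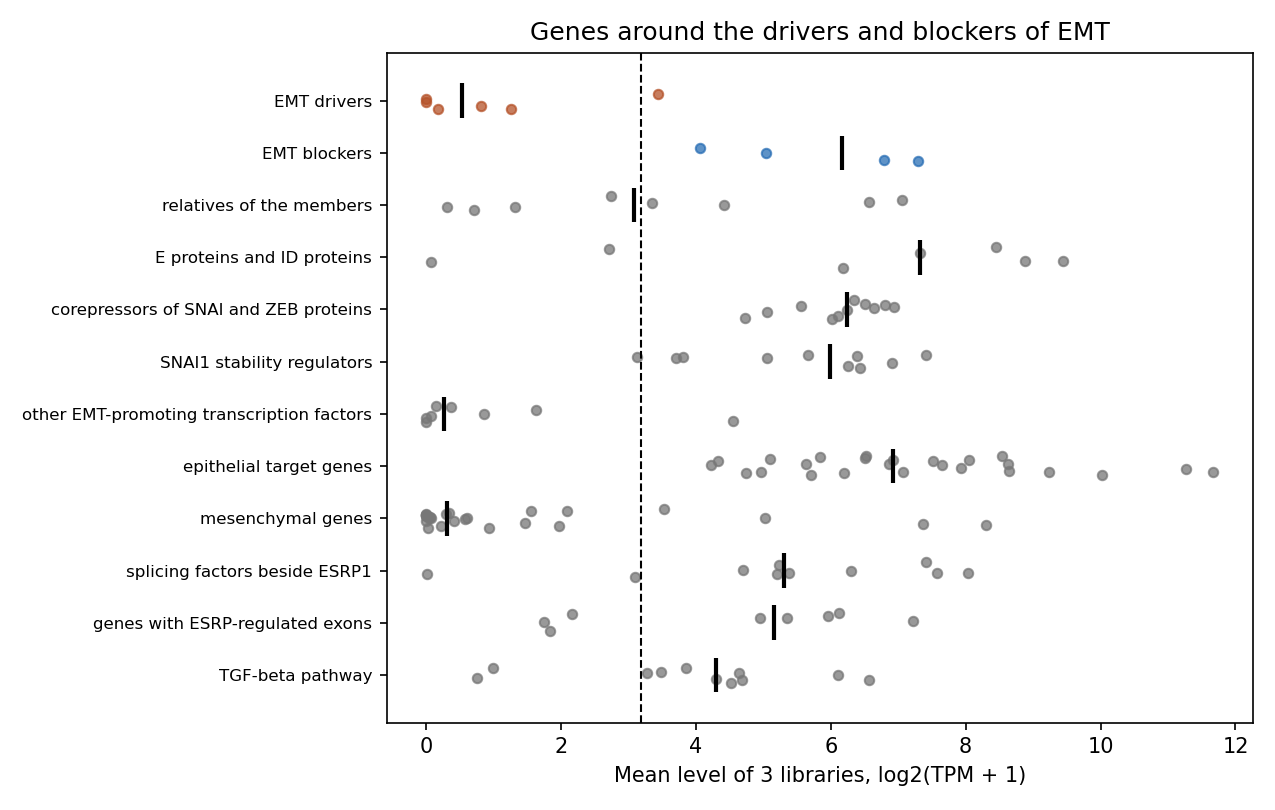
Mean level over 3 libraries as log2(TPM + 1) on the x axis for each gene (points) of the lists on the y axis, with the median of each list as a black bar and that of all protein-coding genes (8.07 TPM) as a dashed line. The blockers and the epithelial target genes lie to the right of the dashed line, and 5 of 6 drivers and most mesenchymal genes to its left.

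Around ESRP1, 9 of 10 other splicing factors were detected (median 38.7 TPM), beside 67.3% of all protein-coding genes (median 8.07 TPM). HNRNPM stood at 261 ± 8.64 TPM, PTBP1 at 190.4 ± 3.18 TPM and SRSF1 at 169.5 ± 7.94 TPM, and RBM47, an RNA-binding protein gene of epithelia, at 78.2 ± 0.280 TPM. Of 8 genes with exons that ESRP proteins control all were detected, led by ENAH (149 ± 9.90 TPM), SCRIB (68.8 ± 3.96 TPM), NUMB (60.9 ± 3.42 TPM) and ARHGEF11 (39.7 ± 0.363 TPM). Counts were per gene, so exon choice was not analysed here. All 11 genes of the TGF-beta pathway, a main inducer of the drivers, were detected, with TGFB3 at 93.7 ± 5.2 TPM, TGFBR1 at 67.7 ± 3.38 TPM, SMAD2 at 24.8 ± 1.45 TPM and SKI at 23.9 ± 1.44 TPM. The type II receptor gene TGFBR2, named after its values were seen, was the lowest of this list, with 37, 28 and 38 counts (0.693 ± 0.0990 TPM).

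Over the 3 libraries the highest TPM of a tested regulator was between 1.03 (TWIST1 and GRHL2) and 1.39 times (SNAI1) its lowest. In edgeR, 14453 genes passed the filter on low counts, and 6018 of them (41.6%) varied beyond Poisson sampling at an adjusted p below 0.05 (chi-square test, Benjamini-Hochberg over all genes tested). Of the 10 regulators 6 were tested, and GRHL2, OVOL1 and ESRP1 were called, a share close to the background. Those 6 passed the filter by their counts, and SNAI2, ZEB1, ZEB2 and TWIST2 did not. GRHL2 had 210.3, 212 and 226 CPM in replicates 1, 2 and 3 (counts scaled to library size with TMM; edgeR chi-square adjusted p = 0.000429), highest in replicate 3. OVOL1 had 18.0, 20.1 and 15.7 CPM (edgeR chi-square adjusted p = 0.00148), lowest in replicate 3. ESRP1 had 231, 221 and 219 CPM (edgeR chi-square adjusted p = 0.0208), highest in replicate 1.

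GRHL1 had 41.3, 43.1 and 45.8 CPM (edgeR chi-square adjusted p = 0.0803), TWIST1 6.17, 6.06 and 6.38 CPM (0.921 in the same edgeR test), and SNAI1 0.935, 0.715 and 1.02 CPM (0.589 in the same edgeR test). None of these 3 passed the threshold. Against the trended negative binomial dispersion of edgeR, 177 genes (1.22%) were called and no regulator was (edgeR adjusted p of about 1.0 for each of the 6). That dispersion was fitted to the same 3 libraries, so a gene with the usual spread for its level is seldom called. The lack of a call is thus no independent sign of a stable level. Replicate 3 was the deepest library, and without it 1174 genes were called beyond Poisson sampling, with no call left for GRHL2, OVOL1 or ESRP1 (adjusted p of 0.845, 0.338 and 0.137 in edgeR). Without replicate 1 the ESRP1 call was lost (edgeR adjusted p = 0.741). Without replicate 2 the OVOL1 call was lost (0.0753 in edgeR) and GRHL1 was called (0.0298 in edgeR). Of all genes tested, 32.5%, 37.1% and 8.04% were called without replicates 1, 2 and 3 respectively.

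Of the E and ID protein genes, 6 were tested in edgeR. Beyond Poisson sampling 5 of the 6 were called, beside 41.6% of all genes tested. Under the negative binomial dispersion ID1 and ID2 were called, beside 1.22% of all genes tested. ID1 had 106, 144 and 237 CPM (edgeR negative binomial adjusted p = 2.87e-10) and ID2 189, 195 and 343 CPM (edgeR negative binomial adjusted p = 5.05e-07), both highest in replicate 3. ID3 (0.0787 in the same edgeR negative binomial test) and ID4 (0.0727 in the same edgeR negative binomial test) were not called under that dispersion.

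**Figure D4:**
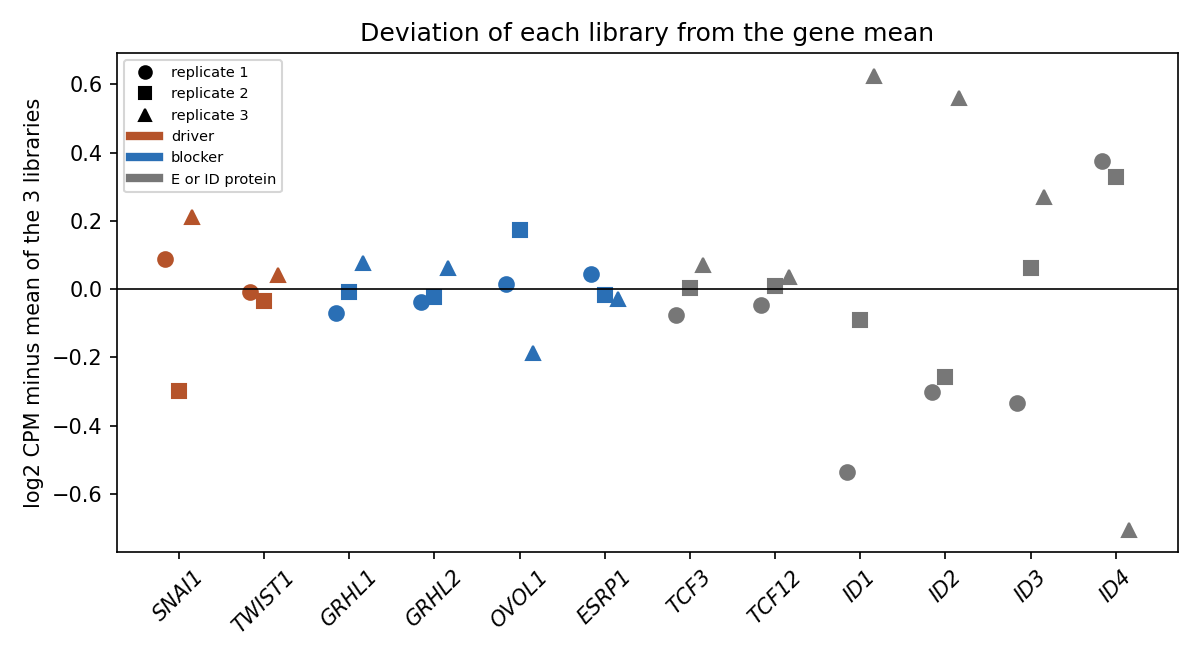
Deviation of log2 CPM from the mean of the 3 libraries (y axis) for the 6 tested EMT regulators and for the E and ID protein genes (x axis), by replicate (circle, square, triangle). TWIST1 and GRHL2 stay near 0, while ID1 and ID2 are highest and OVOL1 and ID4 lowest in replicate 3.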

How the data were processed

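Poly-A RNA of CAMA1 cells was sequenced in 3 libraries of 1 group. The authors deposited estimated counts (expected counts, some fractional, not normalized) for each gene beside its length in bases. The submitters' processing notes list TopHat, Subread, featureCounts and the hg38 build; no version, strand setting or rule for reads with several matches is given in the sources used here. Per the labels' protocols the library kit was stranded.

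TPM were computed from the deposited counts and lengths of all 26485 entries, of which 25294 matched a RefSeq gene name (23758 by their own symbol, 1536 by an older one). Totals were 26473939, 26592335 and 30745412 counts in replicates 1, 2 and 3. To test variation, rounded counts were scaled by TMM in edgeR 4.0.16 (R 4.3.3) after its filter on low counts, and each gene was tested by chi-square against Poisson sampling; the test was tried on simulated counts first. Ratios within families used the exact sign-flip permutation test. Sequences were searched with Python 3.11.15. Names of members and of 16 gene lists (155 of 156 genes found) were chosen with earlier results of these data known. Genes named are the 10 members, all relatives, CDH1, VIM, CDH2 and FN1, and the 4 highest genes of each list, of which 1 is not reported here. Genes named beyond this (TCF12, TCF4, ID4, TGFBR2, SPARC, CDH11, FAP, CRB3, RAB25, 3 further microRNA loci and genes at 0) were chosen after their values were seen. Alternatives covered count minimums of 1 and 20, a mean of 1 TPM, other pseudocounts, CPM, FPKM, GENCODE v29 exon lengths, DESeq2 1.42.0 size factors, no filter, the negative binomial dispersion and leaving out each replicate.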

Additional observations from a re-analysis of the deposited data

How the results depend on the processing

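The log2 ratio of summed drivers over summed blockers moved from -4.69 to -5.97 on CPM and to -4.60 with GENCODE v29 exon lengths, where only the lengths used differ. The number of genes that varied beyond Poisson sampling, 6018, became 177 under the negative binomial dispersion and lay between 1174 and 5435 when each replicate was left out in turn. A level, or the ratio of summed drivers over blockers, was judged against 1 SD between libraries. A family ratio was judged by its sign alone, a count by 1.5 times and a test by its threshold. By these measures 34 of 38 alternative values of the main results were unchanged. So were 84 of 106 of single genes and family ratios. A reversal was looked for in the ratios alone, and none reversed. For levels and ratios, leaving out a replicate could not give another outcome. It moves a mean of 3 libraries by less than 1 SD, and the sign of each family ratio was shared by all 3. These totals therefore include alternatives that test nothing. For a family ratio, unchanged thus means the same sign and not the same size. With 1 TPM added to each gene the log2 ratio of TWIST1 over TWIST2 went from 9.95 to 3.44, and that of ZEB1 over ZEB2 from 3.18 to 0.17. The 6 regulators detected became 8 at a minimum of 1 count and 5 at 20. ESRP1 was not called without a filter on low counts (edgeR adjusted p = 0.0719), an alternative that tested 20473 genes. That alternative called 5797 of the genes it tested (28.3%). It could test SNAI2, ZEB1 and ZEB2, with edgeR chi-square adjusted p of 0.0175, 0.0243 and 0.578. FPKM gave lower values than TPM in these libraries for every regulator that had any counts. No paired analysis was possible because 1 group alone was analysed here. Depth limits what can be said of SNAI2, ZEB1, ZEB2 and TWIST2, which rest on 52, 25, 1 and 0 counts in all.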
